A study of Mus musculus with 10 samples.

Results

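The G1 cyclins, their kinases and the inhibitors of these kinases were followed as a set of 10 genes, taken by name as regulators of the exit from quiescence and of G1. They were Ccnd1, Ccnd2, Ccnd3, Cdk4, Cdk6, Cdkn1b, Cdkn1c, Cdkn2c, Ccne1 and Rb1. All 10 were among the 24544 genes of the count table, and all 10 passed the filter on low counts that left 12203 genes for testing. The libraries came from long-term hematopoietic stem cells (LT-HSCs), the bone marrow cells that renew blood for life. All were sorted from Hoxb5-mCherry mice, a reporter strain in which a red fluorescent protein marks cells that express Hoxb5, at 2 to 3 months of age. Every sorted cell lacked lineage markers, CD48, FLK2 and CD34, carried KIT, SCA1 and CD150, and was positive for Hoxb5. The groups differed in surface neogenin-1 (NEO1), with 5 NEO1+ and 5 NEO1- libraries, each from 250 to 500 cells pooled from 2 mice. The labels name no treatment, sex or sequencing batch. The spread between libraries holds differences between pools of mice and between sorts and preparations, which cannot be told apart.

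A stem cell that leaves quiescence first raises a D-type cyclin, which binds CDK4 or CDK6 and starts to phosphorylate the retinoblastoma protein RB. Phosphorylated RB releases E2F transcription factors, which switch on cyclin E and the genes of DNA replication, and cyclin E with CDK2 then carries the cell into S phase. INK4 proteins such as p18 (Cdkn2c) block CDK4 and CDK6, while the CIP/KIP proteins p27 (Cdkn1b) and p57 (Cdkn1c) block CDK2 complexes and bind the D cyclin complexes as well. In blood-forming stem cells p57 is known as a keeper of quiescence, and CDK6 as a kinase whose low level delays their exit from it. MYC proteins act upstream, Cdk4 and Ccnd2 being well-known targets.

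Promoter sequences, credited to RefSeq (GRCm38.p6), were matched for 6 of the 10 genes by symbol: Ccnd3, Ccne1, Cdk4, Cdk6, Cdkn1b and Cdkn2c. Each window covers 250 bases before to 50 after an annotated start. Those of Ccne1 and Cdk4 are shown, since Ccne1 had the widest difference in level of the set and Cdk4 the most E-boxes. The Ccne1 window lies at chr7:38107441-38107740 on the minus strand. Capitals mark the 6-base core TCCCGC of an E2F site, found on either strand:
Ccne1: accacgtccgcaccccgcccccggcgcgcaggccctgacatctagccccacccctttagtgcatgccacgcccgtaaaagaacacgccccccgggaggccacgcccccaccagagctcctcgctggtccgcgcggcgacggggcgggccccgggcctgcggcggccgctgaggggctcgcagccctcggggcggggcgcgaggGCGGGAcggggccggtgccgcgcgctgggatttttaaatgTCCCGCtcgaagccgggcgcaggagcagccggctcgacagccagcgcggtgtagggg
The core stood 47 and 7 bases before the start, once on each strand. It was present in 19.98% of all 32851 promoter windows. The full 8-base E2F letters TTTCCCGC, TTTCGCGC, TTTGCCGC and TTTGGCGC, of which the first contains the core, were found in 2.26% of windows on either strand and in none of those of the 10 genes. Among the 12 of 14 E2F target genes listed further on that had a window, 6 held the full letters and 8 the core. The Cdk4 window lies at chr10:127063285-127063584 on the plus strand. Capitals mark the E-box CACGTG, the palindrome that MYC proteins bind:
Cdk4: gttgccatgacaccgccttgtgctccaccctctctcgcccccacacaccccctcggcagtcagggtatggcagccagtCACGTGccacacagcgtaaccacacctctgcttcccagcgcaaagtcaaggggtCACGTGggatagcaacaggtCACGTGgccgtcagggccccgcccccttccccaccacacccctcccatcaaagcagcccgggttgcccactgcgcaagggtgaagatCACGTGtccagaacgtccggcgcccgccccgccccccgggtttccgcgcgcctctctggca
It held 4 E-boxes, starting 172, 118, 98 and 11 bases before the start, where 7.15% of all windows held at least 1 and 0.0883% held 3 or more. Cdk6 held 1 E-box and 2 E2F cores, and Cdkn2c 1 E-box at one start and 3 cores at another. A match of letters is a description of the window, not a binding site.

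Levels are given as counts per 1000000 (CPM) on library sizes scaled by TMM. Library totals ran from 21.2 to 38.95 M counts (M, 1000000), and 3 counts, the limit that a count of 0 allows, equalled 0.0699 to 0.144 CPM depending on the library. Intervals and limits of this kind cover counting error only, because reads without molecular identifiers are not independent molecules. Genes with at least 1 count numbered 12800 to 13808 in NEO1+ and 11477 to 13147 in NEO1- libraries (exact permutation p 0.0397, Benjamini-Hochberg adjusted 0.119 over 3 library measures). The share of the ribosomal RNA precursor Rn45s was 27.9 to 37.7% in NEO1+ and 30.7 to 42.45% in NEO1- libraries. Of the 10 markers of the gate and of stem cells, Kit was at 392 to 574 CPM and Hlf at 191 to 308 CPM over all libraries. Neo1 itself, the gene of the sorted marker, was at 64.8, 48.6, 59.6, 12.5 and 52.1 CPM in NEO1+ libraries 1 to 5, against 4.56 to 18.9 CPM in the NEO1- group, so NEO1+ library 4 lay within the NEO1- range. Hoxb5, the gene of the reporter, was at 2.45 to 4.91 CPM in NEO1+ and at 0 to 2.43 CPM in the NEO1- group. Results without NEO1+ library 4 are given for some of the 10 genes and for counts over lists of other genes. They are not given for single genes of those lists.

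None of the 10 genes differed between the groups at an adjusted p under 0.05 in the edgeR quasi-likelihood test, and neither did any other of the 12203 genes, so 0% were called in the whole comparison. Neo1, the gene of the sorted marker, did not pass either (log2 fold change 2.16, SE 0.47, edgeR unadjusted p 0.000447, adjusted p 0.248). The lack of calls therefore does not show that the groups were alike. Without a block for library number, DESeq2 called 120 genes and limma-trend 1, with 0 of the 10 among them. Fits with such a block are given at the end, and there DESeq2 called Ccne1. At an unadjusted p under 0.05 edgeR gave 1 of 10 (Ccnd3), larger in NEO1+, where 3.11% of all genes were larger in NEO1+ and 3.49% smaller. In numbers these were 380 and 426 genes. The fold change (NEO1+ over NEO1-) was above 0 on the log2 scale for 9 of 10 genes, with a median of 0.33, beside 51.0% of all genes and a median of 0.01. With the number of detected genes as a covariate the median of the 10 was 0.14, the fold changes of Ccnd3, Cdk6, Cdkn2c, Ccne1 and Rb1 being smaller than without it or negative and those of Ccnd1, Cdk4, Cdkn1b and Cdkn1c larger in size. In none of the 10 did every library of one group lie beyond every library of the other, a pattern found in 1.35% of all genes in the direction of NEO1+ and in 1.13% in that of NEO1-.

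**Figure D1:**
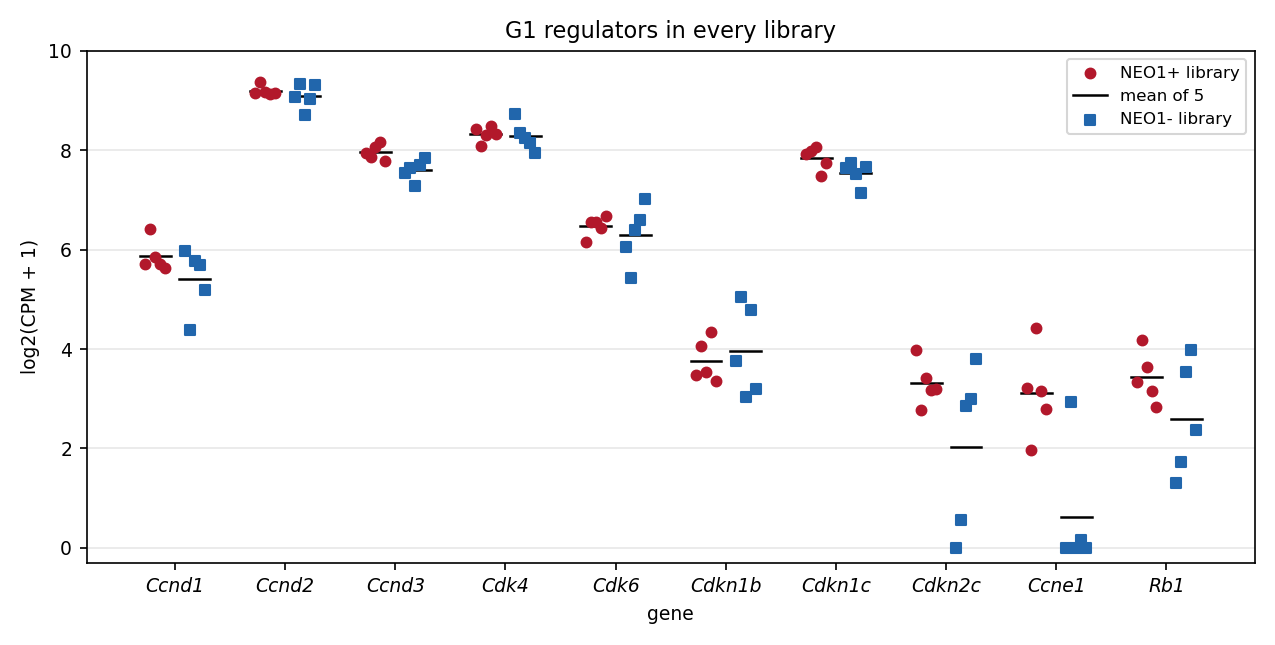
Level of each of the 10 genes in each of the 10 libraries, as log2(CPM + 1), with NEO1+ libraries as circles, NEO1- libraries as squares and a line at the mean of 5. Ccnd2, Ccnd3, Cdk4 and Cdkn1c lie close together in all libraries, while Cdkn2c, Ccne1 and Rb1 spread widely among NEO1- libraries and Ccne1 is at 0 in 3 of them.

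Cyclin D2, encoded by Ccnd2 (chromosome 6, 127125162 to 127152193, GRCm38), was at 566, 662, 573, 558 and 565 CPM in NEO1+ libraries 1 to 5. NEO1- libraries 1 to 5 had 535, 644, 414, 519 and 634 CPM. The groups overlapped, with means of 585 ± 43.5 and 549 ± 94.3 CPM (mean ± SD, n = 5 a group). The log2 fold change was 0.09 (SE 0.11, 95% interval -0.15 to 0.33; edgeR adjusted p 0.988), so a change of the group mean beyond 0.33 on the log2 scale lay outside the interval. Leaving out 1 library gave 0.005 (NEO1- library 3), 0.043 (NEO1+ library 2) and 0.155 (NEO1- library 2).

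Cyclin D3, encoded by Ccnd3 (chromosome 17, 47505051 to 47599691), had the smallest p of the set. It was at 243, 230, 266, 285 and 219 CPM in NEO1+ libraries 1 to 5. NEO1- libraries 1 to 5 had 186, 197, 153, 208 and 229 CPM. Only NEO1- library 5 reached into the NEO1+ range, where it exceeded NEO1+ library 5, and 4 of 5 NEO1+ libraries lay above all NEO1- libraries. The means were 249 ± 26.7 and 195 ± 28.0 CPM (mean ± SD, n = 5 a group). The log2 fold change of 0.35 (SE 0.12, 95% interval 0.09 to 0.62) had an unadjusted p of 0.0116 and did not pass over all genes (edgeR adjusted p 0.553). With the number of detected genes as a covariate the fold change was 0.15 (unadjusted p 0.369). Without NEO1+ library 4 it was 0.30 (unadjusted p 0.0362).

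Cyclin D1, encoded by Ccnd1 (chromosome 7, 144929931 to 144939925), was less abundant. It was at 51.0, 84.1, 57.0, 51.5 and 48.2 CPM in NEO1+ libraries 1 to 5. The NEO1- values, in the same order, were 61.7, 19.9, 53.6, 50.5 and 35.7 CPM. NEO1+ library 2 was the highest of all and NEO1- library 2 the lowest, and the other 8 libraries lay between 35.7 and 61.7 CPM. The log2 fold change of 0.40 (SE 0.28, 95% interval -0.21 to 1.01; edgeR adjusted p 0.900) became 0.21 when NEO1- library 2 was left out and 0.23 when NEO1+ library 2 was. With the covariate it was 0.55.

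The kinases that pair with the D cyclins had nearly equal group means. CDK4 is the partner found in most cells. Cdk4 (chromosome 10, 127063534 to 127067920) was at 344, 270, 314, 355 and 321 CPM in NEO1+ libraries 1 to 5. The NEO1- libraries had 425, 326, 302, 284 and 247 CPM, which enclosed the whole NEO1+ range. The means were 321 ± 32.8 and 317 ± 67.2 CPM (mean ± SD, n = 5 a group), and the log2 fold change was 0.02 (SE 0.14, 95% interval -0.27 to 0.31; edgeR unadjusted p 0.899). Its sign turned with the library left out, and ran from -0.06 (NEO1- library 5 left out) to 0.15 (NEO1- library 1 left out), with -0.02 when NEO1+ library 4 was left out. A covariate for the number of detected genes gave 0.25. CDK6, the other partner, is prominent in blood cells. Cdk6 (chromosome 5, 3341485 to 3531008) was at 70.2, 92.7, 92.9, 86.0 and 101 CPM in NEO1+ and, beside that, 65.1, 42.0, 82.8, 95.9 and 129 CPM in NEO1- libraries 1 to 5. Both the lowest and the highest value were from NEO1- libraries (numbers 2 and 5). The log2 fold change was 0.09 (SE 0.25, 95% interval -0.44 to 0.62; edgeR unadjusted p 0.71), and leaving out NEO1- library 2 or 5 gave -0.07 and 0.31, while a covariate for the number of detected genes gave -0.24. Both intervals include 0 and reach 0.31 and 0.62, so equality of the groups was not shown.

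**Figure D2:**
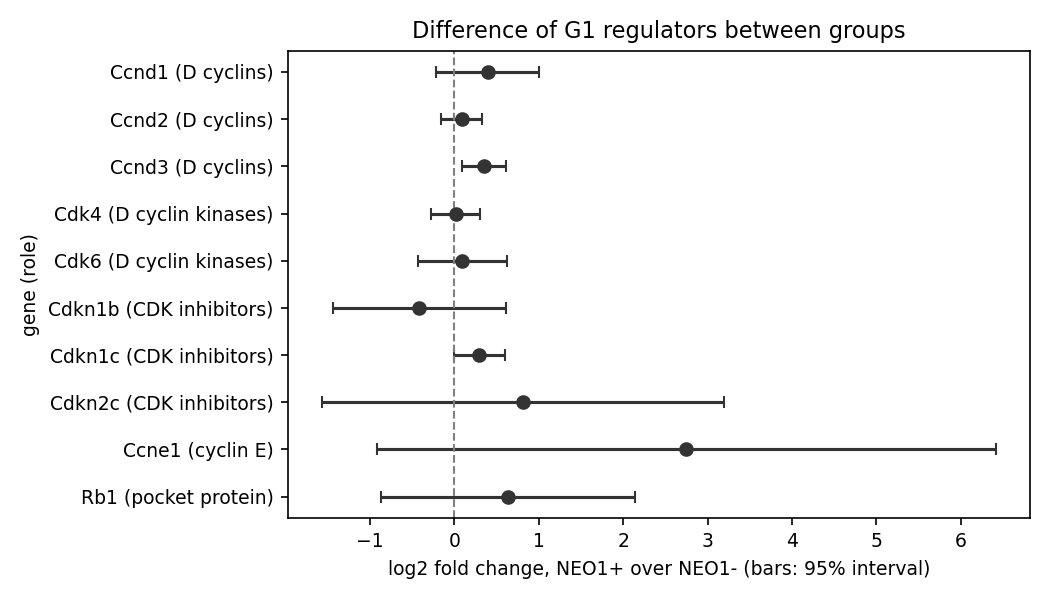
Log2 fold change of each gene, NEO1+ over NEO1-, from the edgeR fit over all genes, with 95% intervals. The intervals of Ccnd2, Ccnd3, Cdk4 and Cdkn1c are narrow, that of Ccnd3 lies above 0, and that of Ccne1 runs from -0.92 to 6.42.

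Of the inhibitors, p57 had by far the most transcript. Cdkn1c (chromosome 7, 143458339 to 143461050), an imprinted gene, was at 243, 251, 266, 178 and 212 CPM in NEO1+ libraries 1 to 5. Its values in NEO1- libraries 1 to 5 were 200, 214, 182, 140 and 200 CPM. The library numbered 4 was the lowest of its group in both, and 3 of 5 NEO1+ libraries lay above all NEO1- libraries. The means were 230 ± 35.2 and 187 ± 28.6 CPM (mean ± SD, n = 5 a group), with a log2 fold change of 0.30 (SE 0.14, 95% interval -0.0047 to 0.60; edgeR unadjusted p 0.0532, adjusted p 0.757). Without NEO1+ library 4 it was 0.38 (unadjusted p 0.0162, adjusted p 0.748), and without NEO1- library 4 it was 0.21 (unadjusted p 0.134). With the covariate it was 0.43 (unadjusted p 0.067). The smallest p values of the set thus belonged to Ccnd3, which drives G1, and Cdkn1c, which holds it back, both with the larger mean in NEO1+ libraries, and neither passed.

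p27, encoded by Cdkn1b (chromosome 6, 134920401 to 134925513), was the single gene of the set with a fold change below 0. It was at 10.2, 15.6, 10.6, 19.4 and 9.23 CPM in NEO1+ libraries 1 to 5. NEO1- libraries 1 to 5 had 12.6, 32.0, 7.21, 26.6 and 8.17 CPM. NEO1- libraries 2 and 4 were the highest of all, and NEO1- libraries 3 and 5 the lowest, so the NEO1- values enclosed the NEO1+ range. The difference, -0.41 on the log2 scale (SE 0.48, edgeR adjusted p 0.985), became -0.07 when NEO1- library 2 was left out and -0.60 when NEO1+ library 4 was. The covariate fit gave -0.82. p27 is known to be controlled largely by protein turnover, which transcript counts do not measure.

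p18, encoded by Cdkn2c (chromosome 4, 109660876 to 109667189), was at 14.9, 5.86, 9.70, 8.03 and 8.19 CPM in NEO1+ libraries. NEO1- library 1 held 0 counts, which allows up to 0.0955 CPM, and NEO1- library 2 held 10 counts (0.468 CPM). NEO1- libraries 3 to 5 were at 6.20, 6.96 and 12.9 CPM, within the NEO1+ range. Its log2 fold change was 0.81 (SE 1.11, edgeR adjusted p 0.995). Leaving out NEO1- library 1, 2 or 5 gave 0.49, 0.52 and 1.45, and a covariate for the number of detected genes gave 0.14. Of the other inhibitors, Cdkn2d (p19) was at 55.1 ± 13.996 and 51.5 ± 15.8 CPM and Cdkn1a (p21, the p53 target) at 9.84 ± 6.35 and 9.03 ± 6.25 CPM in NEO1+ and NEO1- libraries (mean ± SD, n = 5 a group). Cdkn2a had 0 counts in all 10 libraries, and Cdkn2b had counts in NEO1+ library 4 alone (0.487 CPM).

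RB, the pocket protein that the cyclin D kinases phosphorylate, had little transcript. Rb1 (chromosome 14, 73183673 to 73325822) was at 9.08, 17.2, 11.4, 7.91 and 6.15 CPM in NEO1+ libraries 1 to 5. Among NEO1- libraries the values were 1.46, 2.29, 10.6, 14.8 and 4.17 CPM. NEO1- libraries 1 and 2, which were lowest for Cdkn2c, were also lowest for Rb1, while NEO1- library 4 was second only to NEO1+ library 2. Its log2 fold change, 0.63 (SE 0.70, edgeR adjusted p 0.980), became 1.16 when NEO1- library 4 was left out and 0.37 when NEO1- library 1 or NEO1+ library 2 was. The covariate fit gave 0.10. Exons of Rb1 share 408 bases with Lpar6 on the other strand, which was at 124 and 82.1 CPM in NEO1+ and NEO1- libraries. They share 488 bases with Rcbtb2. Ccnd1 shares 1100 bases with LTO1, Cdk4 641 with Tspan31, Cdkn1c 625 with Gm44732, Ccnd2 372 with Gm43126 and 368 with 9330179D12Rik, Cdk6 368 with Gm17590 and Ccnd3 361 with Bysl in the same way. Strand use in counting is not given in the sources used here, so reads from shared bases cannot be assigned. Of the related genes, Rbl2 (p130, the pocket protein of quiescent cells) was at 76.7 ± 14.7 and 53.5 ± 12.2 CPM (mean ± SD, n = 5 a group), a log2 fold change of 0.52 (SE 0.19, edgeR unadjusted p 0.0181, adjusted p 0.604). Rbl1 (p107) was at 27.3 ± 10.1 and 23.7 ± 10.8 CPM.

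Cyclin E1 had the widest difference in level of the set. Ccne1 (chromosome 7, 38097984 to 38107534) held 173, 113, 873, 259 and 204 counts in NEO1+ libraries 1 to 5, or 8.31, 2.89, 20.3, 7.88 and 5.92 CPM. NEO1- libraries 1, 3 and 5 held 0 counts, which allows up to 0.0955, 0.102 and 0.0992 CPM, and NEO1- library 4 held 4 counts (0.122 CPM). NEO1- library 2 held 142 counts (6.65 CPM), more than NEO1+ libraries 2 and 5. Ccne1 was thus present in all NEO1+ libraries and near or at 0 in 4 of 5 NEO1- libraries. The means were 9.07 ± 6.66 and 1.35 ± 2.96 CPM (mean ± SD, n = 5 a group), a ratio of 6.70. The edgeR log2 fold change of 2.75 (SE 1.70, 95% interval -0.92 to 6.42) had an adjusted p of 0.866. Without NEO1- library 2 it was 8.02 (unadjusted p 0.000279, adjusted p 0.301), a size that depends on the prior count of the fit because the remaining NEO1- libraries hold 4 counts in all.

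The mean number of detected genes was also larger in NEO1+ (13146) than in NEO1- libraries (12142). More than 3 counts in all 5 NEO1+ libraries with 0 counts in at least 3 NEO1- libraries was found for 1 of the 10 genes, Ccne1, and for 1.48% of all genes tested (180 genes). The opposite pattern was found for 0 of the 10 and for 0.0246% of all genes (3 genes). This rule was chosen after the values of Ccne1 were seen. With the number of detected genes as a covariate the log2 fold change of Ccne1 was 1.51 (edgeR unadjusted p 0.682). Its SE was 3.60 in this fit, against 1.70 without the covariate. The covariate itself differed in mean between the groups, so the fit cannot tell it apart from the group. NEO1- libraries 1 and 3 detected the fewest genes of all (11477 and 11593) and held 0 Ccne1 counts. NEO1+ library 3 detected the most (13808) and had the highest Ccne1 level (20.3 CPM). Other libraries differed from this order. NEO1- library 4 detected 13147 genes, more than 4 of the 5 NEO1+ libraries, and held 4 Ccne1 counts. NEO1- library 5 detected 12441 genes and held 0 Ccne1 counts, while NEO1- library 2 detected 12053 genes and held 142. The part of gene detection in the Ccne1 difference was not tested beyond this covariate. Fewer cells with the transcript and less of it per cell cannot be told apart in pooled cells.

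**Figure D3:**
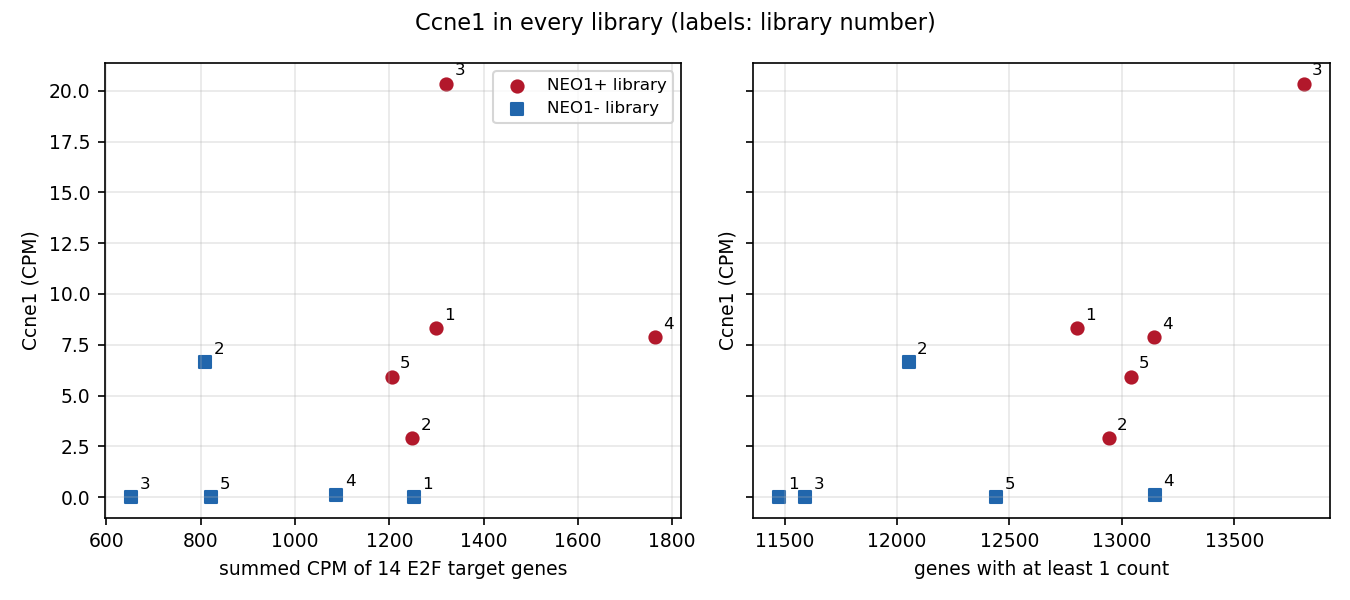
Ccne1 level in CPM in each library against the summed CPM of 14 E2F target genes (left) and against the number of genes with at least 1 count (right), with the library number beside each point. NEO1+ libraries lie between 2.89 and 20.3 CPM, NEO1- library 2 at 6.65 CPM, and the other 4 NEO1- libraries at or near 0.

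Levels of different genes were compared per kb of transcript length, and the order depended on the length taken. With the principal transcript of GENCODE M21, Cdk4 had the highest mean, at 156 ± 16.0 CPM per kb in NEO1+ and 154 ± 32.7 in NEO1- libraries. Cdkn1c followed, at 121 ± 18.5 and 98.5 ± 15.1 CPM per kb, then Ccnd3 at 118 ± 12.7 and 92.2 ± 13.2 and Ccnd2 at 92.4 ± 6.87 and 86.8 ± 14.9 (mean ± SD, n = 5 a group). The ranges of Cdkn1c, Ccnd3 and Ccnd2 overlapped from one to the next in both groups, so these 3 were not set apart. Cdk4 overlapped Cdkn1c in NEO1+ libraries and lay above it without overlap in NEO1- libraries. Ccnd1, at 15.6 ± 3.94 and 11.8 ± 4.43 CPM per kb, lay below all of them without overlap. Cdk6, at 7.68 ± 1.002 and 7.20 ± 2.85, overlapped Ccnd1 in NEO1- libraries only. Cdkn1b, Cdkn2c, Ccne1 and Rb1 had means under 5 CPM per kb, with overlapping ranges between neighbours in the order. With the union of all annotated exons as the length, Cdkn1c had the highest mean in NEO1+ libraries (113 ± 17.3 against 98.7 ± 10.1 CPM per kb for Cdk4) and Cdk4 in NEO1- libraries, with overlap in both. By that length Ccnd3 came to 28.4 ± 3.05 and 22.2 ± 3.19 CPM per kb, below Ccnd2 at 62.2 ± 4.62 and 58.4 ± 10.02 without overlap, because its annotated exons add up to 8775 bases against 2113 in the principal transcript. Which of Ccnd2 and Ccnd3 was the most abundant D cyclin transcript therefore cannot be told from these counts, whereas Ccnd1 was the least abundant under both lengths.

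**Figure D4:**
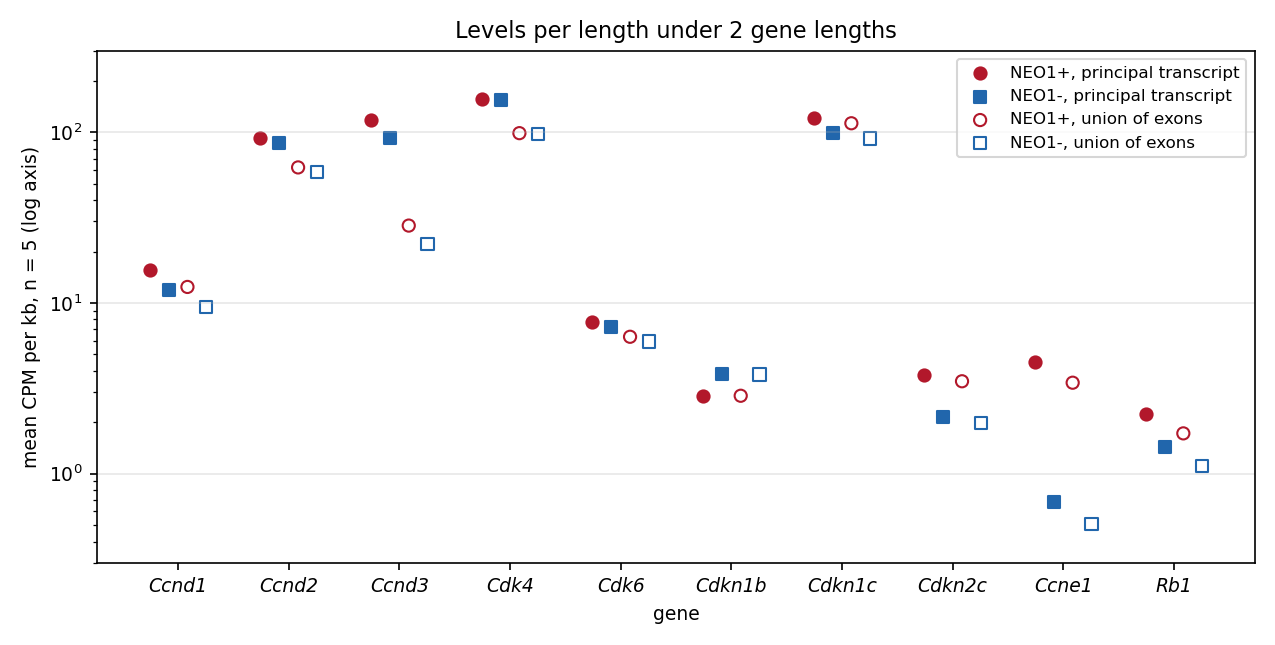
Mean CPM per kb of each gene (n = 5 libraries a group, log axis) with the principal transcript (filled) or the union of exons (open) as the length. Cdk4 and Cdkn1c are near the top under both lengths, and Ccnd3 moves from 118 to 28.4 CPM per kb in NEO1+ libraries.

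The other genes of the network were read from lists by role, 63 genes in all, of which 59 were tested and 4 (Cdkn2a, Cdkn2b, Ccna1 and Mycl) had too few counts. None passed an adjusted p of 0.05 in edgeR. Below an unadjusted p of 0.05 there were 15 with a larger mean in NEO1+ and 1 with a smaller one, beside the shares of 3.11% and 3.49% over all genes. These lists were written with earlier results of these data known, and their counts are a description. With the number of detected genes as a covariate 5 of them had an unadjusted p under 0.05. Without NEO1+ library 4, 11 did. That library was the highest of all for Mycn (713 CPM), Mcm3 (216 CPM), Tfdp1 (174 CPM) and E2f1 (54.4 CPM), which are described below. For Mki67 it was the lowest of the NEO1+ group (33.0 CPM). Fold changes of these single genes without it are not given here.

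Among the upstream factors, Mycn averaged 540 ± 101.3 CPM in NEO1+ against 404 ± 64.2 CPM in NEO1- libraries, and Myc 261 ± 46.8 and 365 ± 94.0 CPM (mean ± SD, n = 5 a group). The pair had log2 fold changes of opposite sign, 0.42 (SE 0.13, edgeR unadjusted p 0.00786) and -0.48 (SE 0.17, unadjusted p 0.0144), with adjusted p values of 0.539 and 0.586. The groups overlapped for both genes. Cdk4, whose promoter window with 4 E-boxes is printed above, had a log2 fold change of 0.02 between the same libraries. The 3 subunits of the CDK-activating kinase, Cdk7, Ccnh and Mnat1, had log2 fold changes of -0.16, -0.06 and -0.18 and none an unadjusted p under 0.05.

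Tfdp1, which encodes DP1, the dimer partner of E2F factors, was the member of the E2F and DP list with the smallest p. It stood at 144, 126, 141, 174 and 128 CPM in NEO1+ libraries 1 to 5. The NEO1- group had 89.1, 77.4, 85.3, 116 and 110 CPM, all below the NEO1+ range. Its log2 fold change was 0.58 (SE 0.15, edgeR unadjusted p 0.00179, adjusted p 0.368). E2f1, an activator of S phase genes, had 33.8 ± 12.8 and 13.9 ± 10.7 CPM (1.28 on the log2 scale, SE 0.86) and E2f8, a repressor of late S phase, 8.89 ± 4.39 and 2.58 ± 2.60 CPM (1.78, SE 1.33; mean ± SD, n = 5 a group), neither at an unadjusted p under 0.05. In the list of MuvB proteins, which form the repressor complex of quiescent cells with p130, and their partners, 0 of 7 had an unadjusted p under 0.05. Mybl2, the partner that takes over in cycling cells, had 11.0 ± 4.19 and 3.37 ± 3.74 CPM (1.71 on the log2 scale, SE 1.07), Lin9 16.1 ± 5.66 and 8.01 ± 4.76 CPM (1.002, SE 0.88) and Rbbp4 147 ± 22.6 and 131 ± 33.0 CPM (0.17, SE 0.17). None of the 9 genes for the turnover of cyclins and p27 did either, among them Skp2, the receptor that marks p27 for degradation, with a log2 fold change of 0.53 (SE 0.48), its cofactor Cks1b (0.23, SE 0.25) and Skp1a (-0.10, SE 0.10).

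Downstream of cyclin E, Ccna2 (cyclin A2 of S phase and G2) averaged 31.8 ± 14.7 CPM in NEO1+ against 8.02 ± 8.002 CPM in NEO1- libraries (mean ± SD, n = 5 a group), a log2 fold change of 1.98 (SE 0.90, edgeR unadjusted p 0.0455, adjusted p 0.745). Ccne2 was at 3.48 ± 2.00 and 1.88 ± 1.34 CPM and Cdc25a, the phosphatase that activates CDK2, at 30.8 ± 4.61 and 27.7 ± 13.4 CPM. All 14 E2F target genes had a fold change above 0, with a median log2 value of 0.53, and 7 of them had an unadjusted p under 0.05, beside 51.0% and 3.11% of all genes. With the number of detected genes as a covariate 2 of 14 had such a p, and without NEO1+ library 4, which held the highest sum of the list, 3 of 14. Mcm4, a subunit of the replicative helicase, had 101 ± 15.1 and 54.3 ± 12.05 CPM (0.90 on the log2 scale, SE 0.18), Tk1, thymidine kinase, 31.2 ± 7.62 and 6.51 ± 4.33 CPM (2.26, SE 0.50) and Mcm3 161 ± 31.6 and 111 ± 23.4 CPM (0.53, SE 0.17; mean ± SD, n = 5 a group). Their edgeR adjusted p values were 0.248, 0.248 and 0.534. The summed level of the 14 genes ran from 1205 to 1764 CPM in NEO1+ libraries, from 652 to 1253 CPM in the others, and NEO1- library 1, the highest of its group, held 0 Ccne1 counts. Of 6 mitotic markers 4 had an unadjusted p under 0.05 (3.11% of all genes did in that direction), 2 with the covariate and 4 without NEO1+ library 4. Their summed level, 208 to 351 CPM in NEO1+ libraries against 51.9 to 148 CPM in the others, did not overlap. Of single genes 1.35% did not overlap in that direction, which is not the rate for a sum of 6 genes from a list chosen with earlier results known. Cdk1, the kinase of mitosis, had 49.8 ± 17.8 and 15.4 ± 4.64 CPM (1.69 on the log2 scale, SE 0.31), Cdc20 45.6 ± 12.1 and 13.7 ± 9.13 CPM (1.74, SE 0.51) and Mki67 46.5 ± 15.5 and 11.3 ± 7.83 CPM (2.04, SE 0.67; mean ± SD, n = 5 a group), with edgeR adjusted p values of 0.155, 0.451 and 0.548. The spread in fold change between the stages, with D cyclins and their kinases between 0.02 and 0.40 and mitotic markers between 0.76 and 2.20 on the log2 scale, was not tested as a difference.

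**Figure D5:**
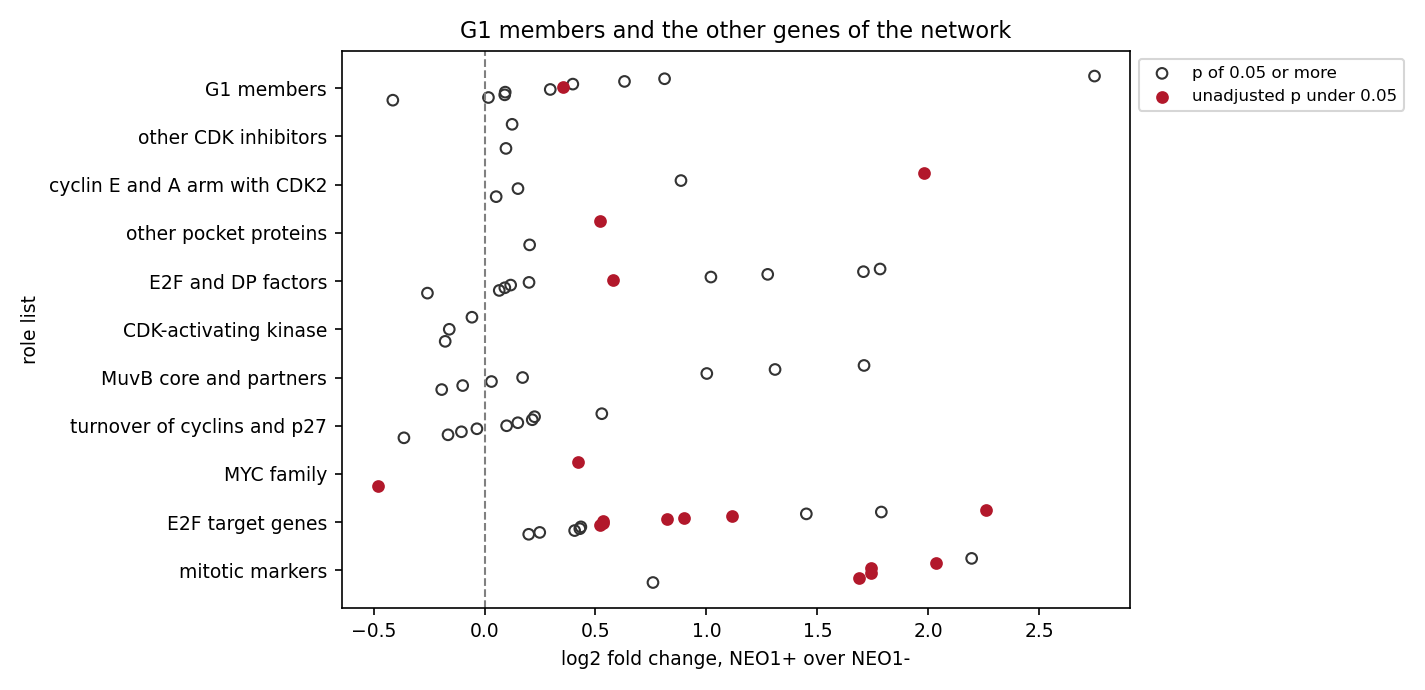
Log2 fold change, NEO1+ over NEO1-, of the 10 genes and of the 59 tested genes of the other role lists, with filled points at an unadjusted edgeR p under 0.05. All 14 E2F target genes and all 6 mitotic markers lie above 0, and the CDK-activating kinase lies below it.

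Markers of other cell types were read beside these values, although the gate removes lineage-positive cells and cells with surface CD48, FLK2 or CD34. The summed level of 6 granulocyte and monocyte genes spanned 158 to 2279 CPM in NEO1+ libraries against 146 to 2706 CPM in the others, and that of 6 erythroid genes went from 21.96 to 279 and from 9.74 to 196 CPM. Of the erythroid genes 5 of 6 had the larger mean in NEO1+ libraries, including Hba-a1, which had counts in NEO1+ library 3 alone (0.0233 CPM). The log2 difference of the erythroid sums was 0.89 (exact permutation p 0.397). That of the T cell sums, mostly Lck, was 1.40 (exact permutation p 0.0794). The multipotent progenitor genes Flt3, Cd48 and Cd34 summed to 52.8 to 116 and 73.2 to 118 CPM, all 3 with a smaller mean in NEO1+ libraries. The 10 stem cell genes summed to 2033 to 2288 and 1949 to 2391 CPM. Sums for B cells (34.1 to 51.7 and 26.1 to 60.9 CPM, almost all from Cd79b), T cells (4.59 to 13.1 and 0 to 12.3 CPM) and megakaryocytes (36.0 to 62.4 and 23.2 to 63.3 CPM) overlapped too. Pax5, Cd3e and Hbb-bt had 0 counts in every library. Over 7 lists, including the stem cell genes, exact permutation tests gave p values of at least 0.0794 (adjusted 0.556). Within NEO1+, the mitotic sums and erythroid Car1 were highest in libraries 1 and 3 (351 and 346 CPM, 118 and 199 CPM). Within NEO1-, both were highest in libraries 3 and 4 (148 and 121 CPM, 154 and 22.6 CPM). Mpo was highest there too (1590 and 552 CPM), but S100a8 was highest in NEO1- library 5 (78.3 CPM). NEO1- library 2, with the highest Ccne1 level of its group, had 0 CPM of Mpo. The part of other cell types in the values of the G1 genes and the mitotic markers was not tested.

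The genes most like the members of smallest p in each direction were found by Pearson's r of log2 CPM over the 10 libraries, among genes with a mean log2 CPM over 5. For Ccnd3 these were Frmd8 (r 0.94), Kmt5a (0.92) and Usp4 (0.92), out of 5027 genes. For Cdkn1b they were Prkd3 (0.90), Unc119 (0.89) and Oas1a (0.88), out of 5028. The libraries share depth and group, and such values are the highest among all genes compared.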

How the data were processed

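RNA from sorted cells was made into cDNA by Smart-seq2, primed on poly(A) tails and amplified by 18 PCR cycles, and 40 ng was tagmented, per the labels' protocols. The submitters' processing notes list bcl2fastq 2.18, STAR 2.4, DESeq2 1.22.2 and the build mm10; the counting tool and annotation are not given in the sources used here. The authors deposited raw counts per gene symbol and library, used for all main results. They also deposited log2 values, which equal log2 of the count over 1 constant per library plus 1 (largest residual 5.15e-14) and served 1 alternative.

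Genes were filtered with filterByExpr, scaled by TMM and tested across all genes by the quasi-likelihood test of edgeR 4.0.16 (R 4.3.3, robust), with Benjamini-Hochberg adjustment over 12203 genes. Standard errors were taken as the size of the log2 fold change divided by the root of F. Log2 CPM uses a prior count of 2. Single values per library were compared by exact two-sided permutation over 252 assignments (smallest p 0.00794). The procedure was tested on simulated data. DESeq2 1.42.0 and limma 3.58.1 were alternatives. Positions and lengths are from GENCODE M21 (GRCm38, the assembly of mm10). No 2 libraries of a group were alike within sampling noise (chi-square per degree of freedom at least 86.7).

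The members, the role lists and the marker lists were chosen with earlier results of these data known. All members were named, and of each role list the 3 tested genes of smallest p. Pairing of equal library numbers was checked by correlating deviations from the group means.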

Additional observations from a re-analysis of the deposited data

Results flagged for a closer look

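A library far from the other 4 of its group was found for 12 of 94 values checked by group. A rate of 1 in 20 would give 4.7 of them, but that rate holds for independent values of normal spread. The genes here share the same 10 libraries, and 0 counts lie at a floor, so 4.7 is only a rough guide. Values are log2 CPM, on which 0 counts are -3.98. Among the 10 G1 genes, Ccnd2 in NEO1+ library 2 was at 9.37 (others 9.13 to 9.16), a gap that is small in fold terms, and Ccne1 in NEO1- library 2 was at 2.75 (others -3.98 to -2.43).

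Among the other genes of the network, 0 counts in a single NEO1- library set it apart for Cdkn1a in library 3 (-3.98, others 2.43 to 3.87), Ccne2 in library 1 (-3.98, others 0.55 to 1.90), E2f1 in library 3 (-3.98, others 3.23 to 4.88) and Lin9 in library 2 (-3.98, others 2.87 to 3.48). Cdc25a in NEO1- library 3 was at 2.28 (others 4.81 to 5.30) and Mki67 in NEO1- library 2 at -1.75 (others 3.23 to 4.32). Rbl2 in NEO1- library 5 was at 6.23 (others 5.49 to 5.68), and E2f8 in NEO1+ library 2 at 1.06 (others 3.06 to 3.70).

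On the log2(CPM + 1) scale, the summed B cell markers of NEO1+ library 2 were at 5.72 (others 5.14 to 5.28) and the summed megakaryocyte markers of NEO1- library 4 at 4.598 (others 5.73 to 6.01). Of these libraries, NEO1- library 2 is the one whose removal moved the edgeR log2 fold change of Ccne1 most, from 2.75 to 8.02. Fits that kept it ran from 1.51 to 8.22, so the size depends on the model as well.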

How the results depend on the processing

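Of 180 alternative fold changes of the 10 genes over 18 settings, 173 kept their direction and side of the threshold. The exceptions were Cdk6 (-0.24 with genes detected as covariate, -0.074 without NEO1- library 2), Cdk4 (-0.059, -0.022, -0.019 and -0.0081 without NEO1- 5, NEO1+ 4, NEO1- 4 and NEO1+ 1) and Ccne1 (8.22, adjusted p 1.99e-06, in DESeq2 with the replicate block). The causes were not tested. Ccne1 ranged from 1.51 to 8.22, and limma-trend gave 5.84 (limma-trend unadjusted p 0.00192, adjusted p 0.255). Genes called numbered 0 in edgeR, 2 without the low-count filter, 120 in DESeq2 and 1 in limma-trend. Network genes with an unadjusted p under 0.05 numbered 16, and 5 with the covariate.

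Deviations of equal library numbers had correlations of 0.00403 to 0.0359, and 4 of 10 libraries correlated best with their own number. Equal numbers were not treated as pairs. The labels do not say whether they come from the same mice, and this check does not settle it. With the replicate block edgeR called 0 genes and gave 19 network genes at an unadjusted p under 0.05 and Ccne1 at 7.73 (unadjusted p 0.0165, adjusted p 0.634). In the same fit Cdkn1c was at 0.30 with an SE of 0.102, against 0.140 without the block (edgeR unadjusted p 0.0178, adjusted p 0.634). DESeq2 with the replicate block called 695 genes (522 higher in NEO1+), 1 of them among the 10 genes (Ccne1), and gave 26 network genes.

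Leaving out 1 library moved Cdk4 from -0.059 to 0.147 and Cdk6 from -0.074 to 0.310, and gave 0 to 1 genes called, 11 to 18 network genes and 0 to 1 of the 10 without overlap (Ccnd3 without NEO1+ 5 or NEO1- 5, Ccne1 without NEO1- 2). The difference in detected genes was 837.5 to 1255 (exact permutation p up to 0.0714), in Rn45s -7.97 to -4.95 percentage points and in total counts -0.19 to 4.25 M (negative at -0.19, -0.025 and -0.0025 without NEO1+ 3, NEO1+ 2 and NEO1- 2). Log2 differences of marker sums were -0.27 to 0.85 for granulocytes and monocytes (negative at -0.27, -0.20, -0.12 and -0.049 without NEO1+ 3, NEO1- 1, NEO1- 2 and NEO1+ 1), 0.0196 to 0.32 for B cells (exact permutation p 0.0238 without NEO1- 1), 0.97 to 1.90 for T cells (exact permutation p 0.00794, the smallest possible here, without NEO1- 5), 0.37 to 1.51 for erythroid and -0.49 to -0.21 for progenitor genes and -0.35 to 0.0021 for megakaryocytes. With 5 libraries a group and a common coefficient of variation of 0.717, intervals for genes of low count stay wide.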
